A study of Mus musculus with 6 samples.

Results

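T-cell receptor alpha and beta transcripts were measured in CD45-sorted blood-forming cells of mouse spleen and mesenteric lymph node (mLN). The genes described are all variable (V) segments of both chains, the rows whose symbol begins with Trav or Trbv and a number, together with the constant genes Trac, Trbc1 and Trbc2. They were found by matching the Ensembl identifiers of the gene tables to symbols in GENCODE M21. Of 55487 genes, 166 were members: 128 Trav segments, 35 Trbv segments and 3 constant genes. The series holds 3 spleen libraries and 3 mLN libraries. All 6 were made from polyA RNA of sorted CD45+ cells, labelled total hematopoietic cells, freshly prepared from wild-type (WT) C57BL6/J mice. The labels give no age. Nor do they say that the libraries of a tissue are from different animals: all p-values rest on the spread among the 3 libraries of each tissue, and this spread may be technical.

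A T-cell receptor is a pair of chains, mostly alpha with beta, carried on the cell surface with the CD3 proteins. Each developing T cell joins 1 V segment to a joining segment (alpha) or to a diversity and a joining segment (beta), and the joined exon is spliced to a constant exon. The relative counts of a V segment can therefore be compared between tissues as its use by the sampled T cells. Among segments, counts also depend on the length of the row. The constant genes follow the amount of receptor RNA as a whole. In a bulk library, fewer T cells and less receptor RNA per T cell cannot be told apart.

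The libraries held 12584244 to 18119551 expected counts, RSEM's estimate of the reads of each gene. The members took 0.05% to 0.0507% of the counts in spleen and 0.1135% to 0.1155% in mLN. All 10 pan-T marker genes were higher in mLN, with a summed level of 1149 to 1157 CPM (counts scaled to a library of 1000000) in spleen and 2803 to 2821 in mLN. All 8 B-cell markers were lower, at 5880 to 6026 CPM in spleen and 3405 to 3460 in mLN. Neutrophil markers summed to 1226 to 1245 CPM in spleen and 0.955 to 1.94 in mLN, and erythroid markers to 1494 to 1556 and 10.4 to 12.8. Levels below are CPM after scaling by TMM factors, and the part of these differing cell mixtures in them was not tested. Elane and Car1, a neutrophil and an erythroid marker, were at 0 in all mLN libraries.

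The 2 beta constant genes encode almost the same protein, and the stretch that sets them apart bears on how their reads were counted. Trbc1 lies at chr6:41538218-41539881 and Trbc2 at chr6:41546730-41548352 on the plus strand of GRCm38. Their coding sequences of 518 bases, from the GENCODE M21 transcripts, were identical over the first 259 bases and differed at 23 positions. Of these, 22 lay in the last 158 bases, positions 361 to 518 of the coding sequence, which are shown with the differing bases in capitals.
Trbc1: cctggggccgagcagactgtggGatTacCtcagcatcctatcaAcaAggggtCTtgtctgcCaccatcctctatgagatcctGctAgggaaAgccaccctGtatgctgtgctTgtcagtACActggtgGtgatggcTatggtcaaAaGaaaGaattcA
Trbc2: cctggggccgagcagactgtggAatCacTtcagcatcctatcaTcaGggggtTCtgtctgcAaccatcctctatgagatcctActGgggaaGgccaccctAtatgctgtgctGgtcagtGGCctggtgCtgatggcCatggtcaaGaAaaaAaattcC

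Receptor constant transcripts were more than doubled in mLN. Trac, the single alpha constant gene (chr14:54220521-54224206), had 138, 148 and 143 CPM in the spleen libraries and 338, 340 and 341 in the mLN libraries. Every mLN library lay above every spleen library, and the rise was 1.25 on the log2 scale (SE 0.03, edgeR quasi-likelihood test, adjusted p = 9.9e-30). Trbc1 had 82.7, 85.0 and 87.2 CPM in spleen and 213, 220 and 199 in mLN. Its log2 fold change was 1.31 (SE 0.04, edgeR adjusted p = 1.9e-27). Trbc2 had 172, 167 and 172 CPM in spleen and 369, 380 and 365 in mLN. It rose by 1.13 (SE 0.03, edgeR adjusted p = 5.9e-29). Of all 14427 genes tested, 45.5% were called, 21.8% as higher and 23.8% as lower in mLN, and their median log2 fold change was 0.00.

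**Figure D1:**
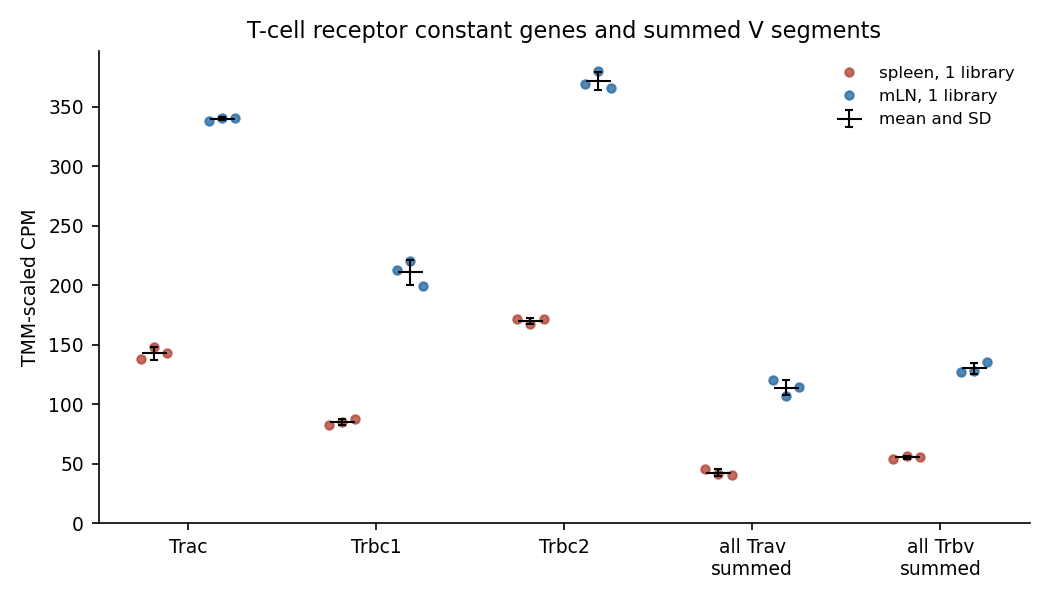
TMM-scaled CPM (y axis) of Trac, Trbc1 and Trbc2 and of all Trav and all Trbv segments summed, 1 point per library in spleen (red) and mLN (blue), with the mean and SD of 3 libraries. For all 5 quantities the mLN libraries lie above the spleen libraries.

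Trbc1 held a slightly higher share of the beta constant counts in mLN. Trbc1 made up 32.5%, 33.7% and 33.7% of the counts of both genes in spleen and 36.5%, 36.7% and 35.3% in mLN, with no overlap. The difference of the means was 2.88 percentage points (exact two-sided permutation test, p = 0.1, the smallest that 3 libraries against 3 allow). Fitted in edgeR with the sum of both genes as the library size, the share of Trbc1 rose by 0.12 on the log2 scale (95% interval 0.02 to 0.22, adjusted p = 0.0194). The share of Trbc2 in the same fit did not pass the test (-0.06, interval -0.15 to 0.02, adjusted p = 0.147). Both shares together make up the whole, so the fits of Trbc1 and Trbc2 describe a single comparison, which passed for Trbc1 only. With that library size 91.5% of all genes are called, since most genes fall relative to receptor genes, so the adjusted p of Trbc1 is close to its unadjusted one of 0.0173. The change is small, and reads within the 259 identical bases can be divided between the genes only by RSEM's estimate.

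V-segment counts summed over each chain rose with the constant genes. All Trav rows together gave 45.8, 41.0 and 40.8 CPM in spleen and 120, 107 and 114 in mLN, a ratio of means of 2.68. All Trbv rows gave 54.0, 56.7 and 55.6 CPM in spleen and 127, 128 and 136 in mLN, a ratio of 2.35. Neither pair of groups overlapped (exact two-sided permutation test, p = 0.1 for each, the smallest possible). The ratio of Trav counts to Trac counts overlapped between the tissues: it was 33.3, 27.6 and 28.6 per 100 in spleen and 35.6, 31.5 and 33.6 in mLN. Trbv counts per 100 counts of Trbc1 and Trbc2 were 21.2, 22.5 and 21.5 in spleen and 21.9, 21.2 and 24.0 in mLN, again overlapping. The exact permutation p was 0.2 for the alpha and 0.6 for the beta ratio.

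The rows of V segments rest on short targets. The median effective length, the number of positions in a transcript where a fragment can start, was 134 to 158 bases for Trav rows and 142 to 157 for Trbv rows, against 626 to 714 for Trac. All 76 rows of joining and diversity segments (Traj, Trbj and Trbd) were at 0 in every library. V usage could thus be compared between the tissues from these counts, and joining segment usage could not.

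Transcripts of the proteins that assemble and signal with the receptor were also higher in mLN. All 11 genes of the list of receptor partners were called higher (21.8% of all genes were), and the median of their log2 fold changes was 1.15. Among the CD3 chains, which carry the signalling motifs, Cd3d rose by 1.35 (SE 0.05), Cd3e by 1.03 (SE 0.04), Cd3g by 1.06 (SE 0.04) and Cd247, the zeta chain, by 1.15 (SE 0.04). The coreceptor Cd4, which binds MHC class II, went from 115 ± 3.64 to 300.2 ± 12.2 CPM (SD, n = 3), a log2 fold change of 1.39 (SE 0.04). Cd8a and Cd8b1, the chains of the MHC class I coreceptor, rose by 1.10 (SE 0.03) and 1.21 (SE 0.04). Downstream, the kinases Lck and Zap70 rose by 1.15 and 0.89 and the adaptor Lat by 1.40 (SE 0.03 to 0.04).

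The same 11 genes were also fitted with the Trac count as the library size, which gives the change relative to Trac. On that scale 3 were called higher and 5 lower in mLN, where 92.4% of all genes are called, 0.832% as higher and 91.6% as lower. Zap70 was lowest (log2 fold change -0.36, 95% interval -0.47 to -0.26, edgeR adjusted p = 1e-11), followed by Cd3e (-0.22), Cd3g (-0.19), Cd8a and Lck (-0.10). Trat1, an adaptor that binds the receptor complex, was highest (0.32, interval 0.04 to 0.59, adjusted p = 0.0254), and Lat was higher by 0.15. Cd4 was higher by 0.14 (95% interval 0.04 to 0.24, edgeR adjusted p = 0.00916), and Cd8a had a log2 fold change of -0.15 (interval -0.25 to -0.06, adjusted p = 0.0012). Cd3d, Cd247 and Cd8b1 did not pass the test on that scale (0.09, -0.11 and -0.04).

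The delta chain rose less than the alpha chain. Trdc, the constant gene of the delta chain, lies inside the alpha locus and had 9.82, 6.27 and 9.67 CPM in spleen and 12.9, 12.4 and 11.3 in mLN. It rose by 0.50 (SE 0.16, edgeR adjusted p = 0.0072). Measured against Trac it was lower in mLN, with a log2 fold change of -0.75 (95% interval -1.06 to -0.44, edgeR adjusted p = 2.3e-06; 92.4% of all genes are called with this library size). Of 7 delta and gamma variable rows, only Trgv2 passed the filter on low counts, with 40 counts in the spleen libraries and 32 in the mLN libraries (log2 fold change -0.11, SE 0.55, edgeR adjusted p = 0.89). The gamma constant genes were not analysed here.

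Genes of receptor rearrangement differed among themselves. Of 3 that could be tested, 1 was called higher and 1 lower in mLN, where 21.8% and 23.8% of all genes were. Rag1, a subunit of the recombinase, averaged 5.0 CPM (SD 1.01, n = 3) in spleen and 0.672 CPM (SD 0.165, n = 3) in mLN, a log2 fold change of -2.86 (SE 0.34, edgeR adjusted p = 2.5e-09). Its partner Rag2 was 0.602 ± 0.504 and 0.783 ± 0.0987 CPM and did not pass the test (0.38, SE 0.59, adjusted p = 0.64; relative to Trac -0.84, 95% interval -1.98 to 0.30). Dntt, which adds untemplated bases at the joints, rose by 1.01 (SE 0.30, edgeR adjusted p = 0.0051), and relative to Trac its change was -0.24 (95% interval -0.86 to 0.39). Ptcra, the surrogate alpha chain of thymocytes, had 1 count in all 6 libraries. B-cell precursors use the same recombinase, and markers of B, neutrophil and erythroid cells were higher in spleen, as given above. Their part in the Rag1 difference was not tested.

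Every Trbv segment that could be tested rose in mLN. Of the 35 Trbv rows, 19 passed the filter on low counts. All 19 are V genes that code for protein, and all 19 were called higher (21.8% of all genes were). For 17 of them the spleen libraries alone met the level the filter asks for, 0.613 CPM in all 3. Trbv4 and Trbv20 met it only with the mLN libraries, so their calls are no independent count. Median counts per library were 45 in spleen and 88 in mLN.

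The 3′ ends of 5 Trbv segments show where the germline segment, and with it the row in the tables, stops. Each ends a few bases past the last in-frame cysteine codon (capitals), with which the third complementarity-determining region (CDR3) begins. The rest of that region, after these bases, comes from the diversity and joining segments and from untemplated bases added at the joints. Trbv13-2 and Trbv16 had the most counts, and Trbv4, Trbv20 and Trbv31 are taken up again for their shares. The last 60 coding bases are from the GENCODE M21 transcripts.
Trbv13-2: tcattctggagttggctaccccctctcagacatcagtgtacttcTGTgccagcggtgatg
Trbv16: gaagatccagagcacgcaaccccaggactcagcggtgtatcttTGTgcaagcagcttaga
Trbv4: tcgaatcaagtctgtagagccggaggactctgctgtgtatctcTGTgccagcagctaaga
Trbv20: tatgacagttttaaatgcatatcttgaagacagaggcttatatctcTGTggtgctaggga
Trbv31: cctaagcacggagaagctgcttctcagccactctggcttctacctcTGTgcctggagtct

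Trbv13-2 (chr6:41121396-41121832), a common partner of the invariant natural killer T (NKT) alpha chain, was the most abundant per length. The authors' TPM, counts scaled by effective length, averaged 91.8 (SD 5.04, n = 3) in spleen and 176 (SD 0.881, n = 3) in mLN. Its level was 7.12, 7.24 and 8.06 CPM in spleen and 15.7, 15.5 and 15.4 in mLN. The log2 fold change was 1.05 (SE 0.14, edgeR adjusted p = 2.5e-08). Trbv16 (chr6:41151740-41152230) came next per length, at 62.7 ± 6.47 and 113 ± 21.2 TPM. Its CPM of 8.04, 6.94 and 7.40 in spleen and 13.4, 12.5 and 17.5 in mLN differed by 0.94 (SE 0.15, edgeR adjusted p = 1.3e-06). Below them the order by TPM in spleen was Trbv29 (43.2 ± 10.8), Trbv13-3 (38.7 ± 4.98) and Trbv1 (33.3 ± 1.42). Neighbours in this order overlapped, while all Trbv29 libraries lay above all Trbv1 libraries. In mLN the same 3 had 88.2 ± 24.7, 83.5 ± 11.6 and 69.4 ± 14.2 TPM and all overlapped, and Trbv29 overlapped with Trbv16.

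**Figure D2:**
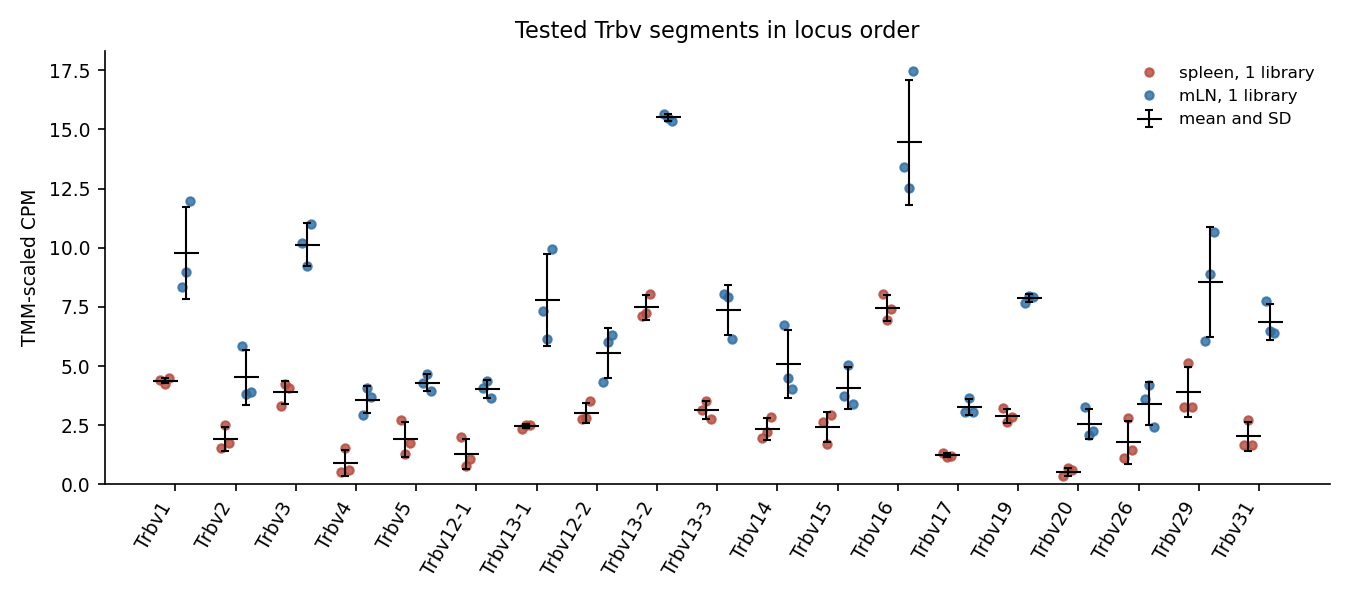
TMM-scaled CPM (y axis) of the 19 tested Trbv segments in their order along the locus, 1 point per library in spleen (red) and mLN (blue), with mean and SD of 3 libraries. In 18 segments all mLN libraries lie above all spleen libraries, and in Trbv26 the groups overlap. The share of all genes with separate groups is not given here. By the edgeR test 45.5% of all genes were called, 21.8% as higher.

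The least abundant tested segments per length in spleen were Trbv20 and Trbv4, at 6.80 ± 1.93 and 7.57 ± 4.57 TPM. Trbv20 (chr6:41188273-41188977) had 0.344, 0.669 and 0.597 CPM in spleen and 3.27, 2.08 and 2.26 in mLN, a log2 fold change of 2.23 (SE 0.45, edgeR adjusted p = 7.4e-05). Trbv4 (chr6:41059394-41059886) had 0.539, 1.52 and 0.593 CPM in spleen and 2.95, 4.08 and 3.69 in mLN, a change of 2.03 (SE 0.39, adjusted p = 2.6e-05). These were the largest fitted rises among the tested Trbv segments. The smallest was that of Trbv15, at 2.64, 1.70 and 2.93 CPM in spleen and 3.73, 5.06 and 3.4 in mLN. Its log2 fold change was 0.75 (SE 0.29, edgeR adjusted p = 0.03). Trbv15 was not called without spleen replicate 2 (0.56, adjusted p = 0.148) or without mLN replicate 2 (0.56, adjusted p = 0.185). Trbv26 (0.96, SE 0.34, adjusted p = 0.019) was not called without spleen replicate 1 or 3 or mLN replicate 1 or 2, with adjusted p from 0.0509 to 0.135.

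The Trbv segments had a similar order by share of counts in both tissues. The share of each segment in all Trbv counts was fitted in edgeR with the Trbv sum as the library size. Over the 19 segments the mean shares of spleen and mLN had a Pearson correlation of 0.96 and a Spearman correlation of 0.95, a description of points that share their libraries. Correlations between 2 libraries were 0.88 to 0.96 within a tissue and 0.87 to 0.94 across tissues. The 3 segments with the highest shares held 34.9% of Trbv counts in spleen and 30.8% in mLN. For 14 of the 19 segments the 95% interval of the share ratio lay within 2-fold in either direction.

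The Trbv13 family showed this most closely. Its 3 members together held 23.4%, 23.4% and 24.0% of Trbv counts in spleen and 24.4%, 23.2% and 23.2% in mLN. The log2 fold change of the share was 0.00 with a 95% interval of -0.23 to 0.23. Within the family Trbv13-2 held 13.2%, 12.8% and 14.5% in spleen and 12.3%, 12.2% and 11.3% in mLN, without overlap, yet the fitted change of -0.18 did not pass the test (interval -0.48 to 0.13, edgeR adjusted p = 0.266). Trbv13-1 went the other way, from 4.36%, 4.40% and 4.51% to 5.75%, 4.8% and 7.34% (0.42, interval -0.05 to 0.90, adjusted p = 0.088).

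3 Trbv segments passed the threshold for a higher share and 0 for a lower one, the 3 and 0 counts being the same at an unadjusted edgeR p under 0.05. In that fit 92.1% of all genes are called, 0.88% as higher and 91.2% as lower, because most genes fall relative to receptor genes. The adjustment therefore leaves a segment's p almost as it was. Of the 3 segments, only Trbv31 met the filter's level in the spleen libraries alone. Trbv20 and Trbv4 could be tested only through the mLN libraries, where they are high, so their higher shares are no independent count. Trbv20 held 0.638%, 1.18% and 1.07% of Trbv counts in spleen and 2.56%, 1.63% and 1.67% in mLN, without overlap (log2 fold change 1.01, 95% interval 0.08 to 1.95, edgeR adjusted p = 0.0375). Trbv4 held 1.00%, 2.68% and 1.07% in spleen and 2.31%, 3.20% and 2.72% in mLN, with overlap (0.81, interval 0.04 to 1.58, adjusted p = 0.0418). Trbv31 held 3.08%, 4.83% and 3.01% in spleen and 6.07%, 5.06% and 4.71% in mLN, also with overlap (0.54, interval 0.02 to 1.06, adjusted p = 0.0457). Trbv31 (chr6:41557691-41558452) is the one segment that lies downstream of the constant genes, on the minus strand, and joins by inversion.

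Each of these 3 calls depended on the setting. DESeq2 with the same library sizes called 0 Trbv shares, also at an unadjusted p under 0.05. Each of the 3 lost its call without spleen replicate 1 and without spleen replicate 3, and further losses came without mLN replicate 1, 2 or 3. Among the other segments, Trbv16 held 14.9%, 12.2% and 13.3% in spleen and 10.5%, 9.82% and 12.9% in mLN. Its fitted change of -0.29 had an interval of -0.60 to 0.02 (edgeR adjusted p = 0.0724) and was called only without mLN replicate 3 (-0.41, adjusted p = 0.0211).

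**Figure D3:**
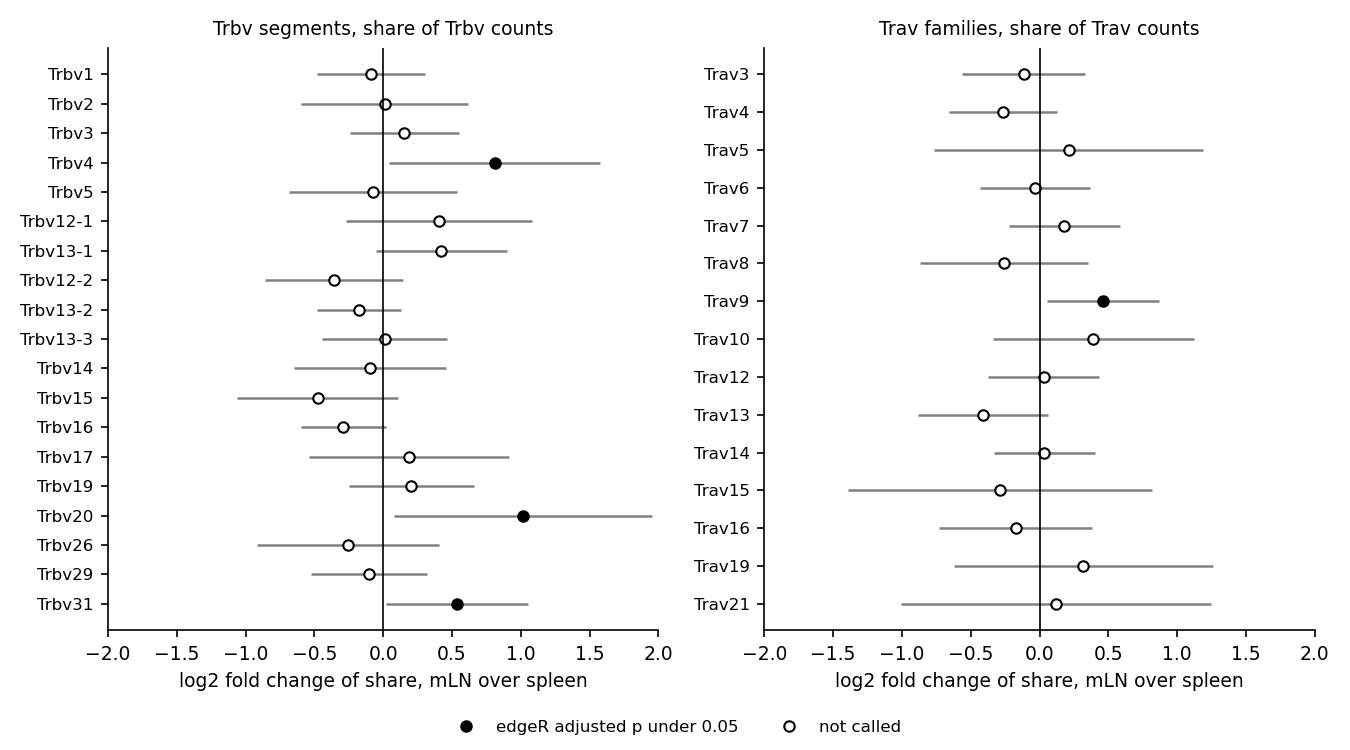
Log2 fold change of the share, mLN over spleen (x axis), with 95% intervals, for the 19 tested Trbv segments (left) and the 15 tested Trav families (right). Filled points passed an edgeR adjusted p of 0.05, and the interval of most others crosses 0.

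Alpha V segments were spread over more rows, many of them near copies of each other. The Trav locus spans chr14:52427928-53977678 and a stretch of it is repeated in C57BL/6, which gives segments named with d and n beside those without a letter. Of the 128 rows, 55 carry no copy letter, 39 are d and 34 are n copies. Rows of 1 family were summed, since sums do not depend on how RSEM divides reads among copies within that family. Of 23 families 15 passed the filter, and 14 were called higher and 0 lower in mLN (45.4% of all genes were called in that fit, 21.7% as higher and 23.8% as lower). At an unadjusted edgeR p under 0.05 there were also 0 lower, and 0 by DESeq2. For 11 families the spleen libraries alone met the filter's level, and all 11 were called, with a median log2 fold change of 1.39.

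Trav14 was the family with the most counts in both tissues. It had 6.32, 4.14 and 5.49 CPM in spleen and 17.6, 12.1 and 14.2 in mLN, a log2 fold change of 1.45 (SE 0.17, edgeR adjusted p = 1.2e-09). Trav9 had 4.25, 3.89 and 2.63 CPM in spleen and 16.2, 12.3 and 11.1 in mLN. Its rise of 1.88 (SE 0.19, edgeR adjusted p = 2.7e-11) was the largest fitted one of the 15. Trav13 had the smallest, from 4.13, 3.77 and 2.81 CPM to 5.65, 7.57 and 8.20 (1.00, SE 0.22, adjusted p = 0.0002). The groups were separate in these 3 families. Trav15 was not called (1.10, SE 0.55, edgeR adjusted p = 0.1), with only 2 counts in spleen replicate 2. Trav21 was called at an adjusted p of 0.044 (1.53, SE 0.62) although its groups overlapped. It was not called by DESeq2 (adjusted p = 0.0644), nor with library totals, nor without spleen replicate 2 or 3 or mLN replicate 1 or 3.

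Families of the alpha chain also had a similar order by share of counts in both tissues. Over the 15 families the mean shares in spleen and mLN had a Pearson correlation of 0.95 and a Spearman correlation of 0.92, again over points from the same libraries. Correlations between 2 libraries were 0.88 to 0.94 within a tissue and 0.83 to 0.94 across tissues. For 10 of the 15 the 95% interval of the share ratio lay within 2-fold. Trav12 held 9.15%, 8.16% and 13.0% of Trav counts in spleen and 8.92%, 11.1% and 10.9% in mLN (log2 fold change 0.03, interval -0.37 to 0.43). Trav14 held 13.8%, 10.1% and 13.5% in spleen and 14.6%, 11.3% and 12.4% in mLN (0.03, interval -0.33 to 0.40). Both overlapped between the tissues.

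Trav9 was the family whose share passed the threshold, 1 of 15 (93.9% of all genes are called in that fit, 0.445% as higher and 93.5% as lower), and 0 passed it for a lower share, also at an unadjusted p under 0.05 or by DESeq2. It held 9.27%, 9.50% and 6.43% of Trav counts in spleen and 13.5%, 11.5% and 9.68% in mLN, without overlap. The log2 fold change was 0.46 (95% interval 0.05 to 0.86, edgeR adjusted p = 0.0289). DESeq2 did not call it (adjusted p = 0.0678), and it was not called without spleen replicate 3 (0.30, adjusted p = 0.197) or mLN replicate 1 (0.33, adjusted p = 0.171).

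Single Trav rows were thinly covered. Of the 128 rows, 48 passed the filter, with a median count per library of 11 in spleen and 24 in mLN. For 37 of the 48 the spleen libraries alone did not meet the filter, so that many of these rows could be tested only because they were higher in mLN. In all 34 were called higher and 0 lower, against 21.8% and 23.8% of all genes. Of the 11 rows that met the filter's level in spleen alone, 9 were called, and their median log2 fold change was 1.25, close to that of Trac. The 14 rows not called had fitted changes of 0.57 to 1.33.

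The most abundant single row by mean CPM was Trav4-4-dv10, a segment that can join either the alpha or the delta chain. It had 1.84, 2.22 and 1.73 CPM in spleen and 4.88, 6.04 and 4.40 in mLN (log2 fold change 1.39, SE 0.27, edgeR adjusted p = 4e-05). Its share of Trav counts had a log2 fold change of -0.02 (95% interval -0.62 to 0.59). Trav7-4 had 0.746, 0.973 and 0.537 CPM in spleen and 3.22, 4.04 and 3.8 in mLN, a log2 fold change of 2.28 (SE 0.37, edgeR adjusted p = 1.8e-06). Its share went from 1.63%, 2.37% and 1.32% to 2.68%, 3.77% and 3.32%, without overlap (0.88, interval 0.07 to 1.69, edgeR adjusted p = 0.0364). It is one of the 37 rows, and its share was not called by DESeq2 (adjusted p = 0.0618) nor without spleen replicate 1 or 3 or mLN replicate 2 or 3. Its share and that of Trav12d-3 were the 2 of 48 called, where 93.7% of all genes are called, 0.451% as higher and 93.3% as lower. No Trav row was called lower in share, also at an unadjusted edgeR p under 0.05 or by DESeq2.

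Trav12d-3 shows what the copies do to single rows. It and its relatives Trav12n-3 and Trav12-3 were singled out after their values were seen. It had 0, 0 and 9 expected counts in spleen and 39, 39 and 16 in mLN, the largest fitted rise among tested Trav rows (3.46, SE 0.71, edgeR adjusted p = 0.00019). Like Trav7-4 it is one of the 37 rows that did not meet the filter's level in the spleen libraries alone. Its calls in level and in share are therefore no independent result. Its copy Trav12n-3 had 20, 6 and 0 counts in spleen and 0, 0 and 0 in mLN. The coding sequences of these 2 segments, 347 bases each, are identical in GENCODE M21, and the transcript of one (347 bases) is contained in that of the other (353 bases). Within every library all counts went to 1 of the 2 rows.

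Summed, the pair had 20, 6 and 9 counts in spleen and 39, 39 and 16 in mLN. The sum rose by 1.56 (edgeR adjusted p = 0.0059), and its share of Trav counts did not pass the test (0.17, adjusted p = 0.735). The summing of copies was chosen after seeing the data. The third relative, Trav12-3, differs from Trav12d-3 at 11 of 347 coding positions, all in the first 220 bases, which are shown with these in capitals, and its reads can be told from those of the pair where they cover such a position.
Trav12d-3: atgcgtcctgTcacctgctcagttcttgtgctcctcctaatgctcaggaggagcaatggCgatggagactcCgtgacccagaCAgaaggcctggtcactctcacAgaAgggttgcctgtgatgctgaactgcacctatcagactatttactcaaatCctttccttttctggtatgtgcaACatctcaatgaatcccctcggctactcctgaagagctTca
Trav12-3: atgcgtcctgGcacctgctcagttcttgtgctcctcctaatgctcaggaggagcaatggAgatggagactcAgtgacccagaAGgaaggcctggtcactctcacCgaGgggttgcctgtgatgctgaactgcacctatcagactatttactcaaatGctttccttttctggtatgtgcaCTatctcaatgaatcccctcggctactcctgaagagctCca
Trav12-3 had 14, 9 and 16 counts in spleen and 23, 44 and 22 in mLN, and rose by 1.32 (SE 0.45, edgeR adjusted p = 0.013). Trav12d-3 lies at chr14:52929789-52930282, Trav12n-3 at chr14:53240745-53241244 and Trav12-3 at chr14:53621657-53622245.

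Exact copies were common in the alpha locus. There were 17 pairs of segments with identical transcripts, 34 rows in all. In all 17 pairs both rows had equal expected counts in every library (to within 0.01), so each such row carries its part of a shared value and the pair is 1 measurement. Of the 48 tested rows 14 belonged to such pairs, and 10 of these were called higher (21.8% of all genes were). With identical and nested copies summed to 1 row, 30 Trav rows were called higher and 0 lower. In the fit without summing, 21.8% of all genes were called higher and 23.8% lower. In the share fit without summing, these were 0.451% and 93.3%. In shares, Trav7-4 remained the 1 higher call, and the sum of Trav6d-6 and Trav6-6 was called lower (-0.87, edgeR adjusted p = 0.0396). That pair, also named after its values were seen, together had 32, 26 and 17 counts in spleen and 31, 38 and 28 in mLN.

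The alpha segments of invariant innate-like T cells had few counts in both tissues. Invariant NKT cells, which recognise lipids on CD1d, use Trav11 with Traj18. All counts of the Trav11 and Trav11d pair were assigned to Trav11d (chr14:52824357-52824912), whose transcript of 342 bases is contained in the 343 bases of Trav11. The pair had 3, 3 and 3 counts in spleen and 9, 18 and 9 in mLN. Their CPM ratio was 4.48 (95% exact interval 2.12 to 10.6, counting error only). As a share of Trav counts the ratio was 1.68 (interval 0.795 to 3.97), and the pair did not pass the filter. In the fit without a filter Trav11d was not called in CPM (log2 fold change 2.09, SE 0.85, edgeR adjusted p = 0.0512). Nor was its share called (0.72, SE 0.88, edgeR adjusted p = 0.476). The third copy, Trav11n, had 0, 2 and 4 counts in spleen and 0 in each mLN library. With Trav11n included, the Trav11 family had 15 counts in spleen and 36 in mLN. Its mean share of Trav counts was 0.714% (SD 0.325, n = 3) in spleen and 0.693% (SD 0.228, n = 3) in mLN, with overlap. The last 120 coding bases of Trav11d, where the pair does not differ except for a final base of Trav11, are shown.
Trav11d: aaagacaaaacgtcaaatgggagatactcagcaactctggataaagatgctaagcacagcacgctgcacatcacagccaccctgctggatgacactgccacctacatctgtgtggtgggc

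Trav1 pairs with Traj33 in mucosal-associated invariant T (MAIT) cells, which recognise vitamin B metabolites on MR1. It lies at chr14:52427928-52428876, the segment farthest from Trac. It had 1, 0 and 1 counts in spleen and 10, 10 and 9 in mLN. The groups were far apart for so few counts: the CPM ratio was 16.2 (95% exact interval 4.11 to 140, counting error only), and the ratio of its shares of Trav counts was 6.10 (interval 1.54 to 52.7). It did not pass the filter. In the fit without a filter its CPM was called higher (log2 fold change 3.8, edgeR adjusted p = 0.0073), and its share was not (2.50, adjusted p = 0.0767). Trav1 is also used by conventional T cells, and Traj33 and Traj18 were at 0 in all libraries, so the invariant chains themselves were not measured.

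**Figure D4:**
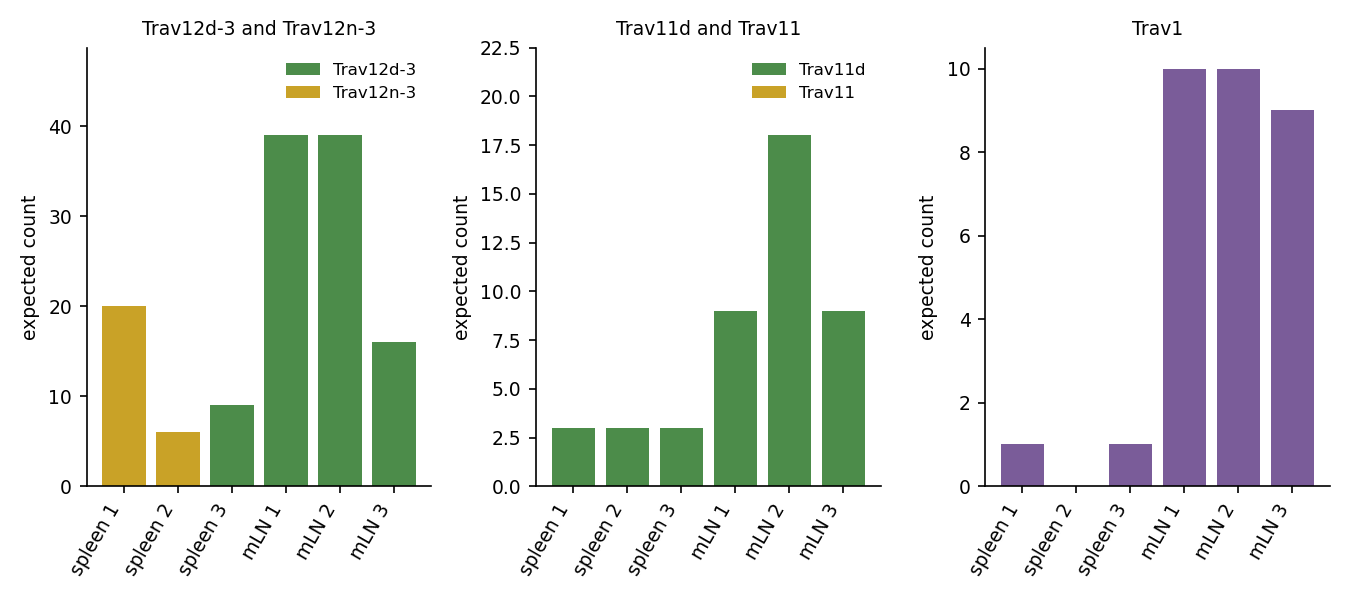
Expected counts (y axis) in each of the 6 libraries for Trav12d-3 and Trav12n-3 (stacked), for Trav11d and Trav11 (stacked) and for Trav1. In each library 1 row of a pair holds all counts, and Trav1 has 9 or 10 counts in each mLN library and at most 1 in a spleen library.

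The beta partners of the invariant NKT chain are Trbv13-2, Trbv29 and Trbv1. Trbv29 held 6.06%, 9.01% and 5.91% of Trbv counts in spleen and 4.76%, 6.96% and 7.88% in mLN (log2 fold change -0.10, 95% interval -0.52 to 0.32). Trbv1 held 8.18%, 7.51% and 8.06% in spleen and 6.54%, 7.05% and 8.83% in mLN (-0.09, interval -0.48 to 0.30). Both overlapped. Of the 14 genes on the list of innate-like T cells, 6 were called higher and 5 lower in mLN, against 21.8% and 23.8% of all genes. Zbtb16, the transcription factor PLZF that sets the innate-like programme, had a log2 fold change of -1.11 (SE 0.34, edgeR adjusted p = 0.007), and Klrb1c, the NK1.1 antigen also carried by NK cells, of -0.95 (SE 0.32, adjusted p = 0.0141). Cd1d1, which presents lipids to NKT cells, was lower (-0.58, SE 0.07). Mr1 did not pass the test (0.12, SE 0.13). Of 5 tested NK markers 4 were lower in mLN, and their part in these values was not tested.

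Counts were also compared along the alpha locus, where the tissues overlapped in every stretch of 500 kb. Segments near Trac join first in a developing cell, and more distant ones are reached by later rounds. The 128 rows lay 243 to 1792 kb upstream of Trac. The stretch from 500 to 1000 kb held 66.1%, 62.4% and 63.8% of Trav counts in spleen and 60.8%, 64.7% and 60.9% in mLN. The next stretch, to 1500 kb, held 21.5%, 24.8% and 27.5% in spleen and 28.7%, 25.7% and 27.6% in mLN. Over the 4 stretches the exact two-sided permutation p was 0.2 to 0.9, unadjusted. Some copies with identical coding sequences lie in different stretches, so the stretch values also depend on how RSEM divided reads. Trav12d-3, for example, lies in the stretch from 1000 to 1500 kb and Trav12n-3 in that from 500 to 1000 kb. Rows named d held 17.3%, 19.1% and 20.2% in spleen and 22.9%, 21.3% and 22.1% in mLN, without overlap (exact permutation p = 0.1, the smallest possible). Since reads of identical d and n copies are divided by RSEM, this split is uncertain, and without Trav12d-3 the d rows held 17.3%, 19.1% and 18.9% in spleen and 20.7%, 19.3% and 21% in mLN. Rows named d and n together held 39.4%, 40.0% and 40.9% in spleen and 44.0%, 40.9% and 41.5% in mLN, where the groups overlapped. Rows named n held 22.1%, 20.9% and 20.7% in spleen and 21.2%, 19.6% and 19.4% in mLN, with overlap.

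**Figure D5:**
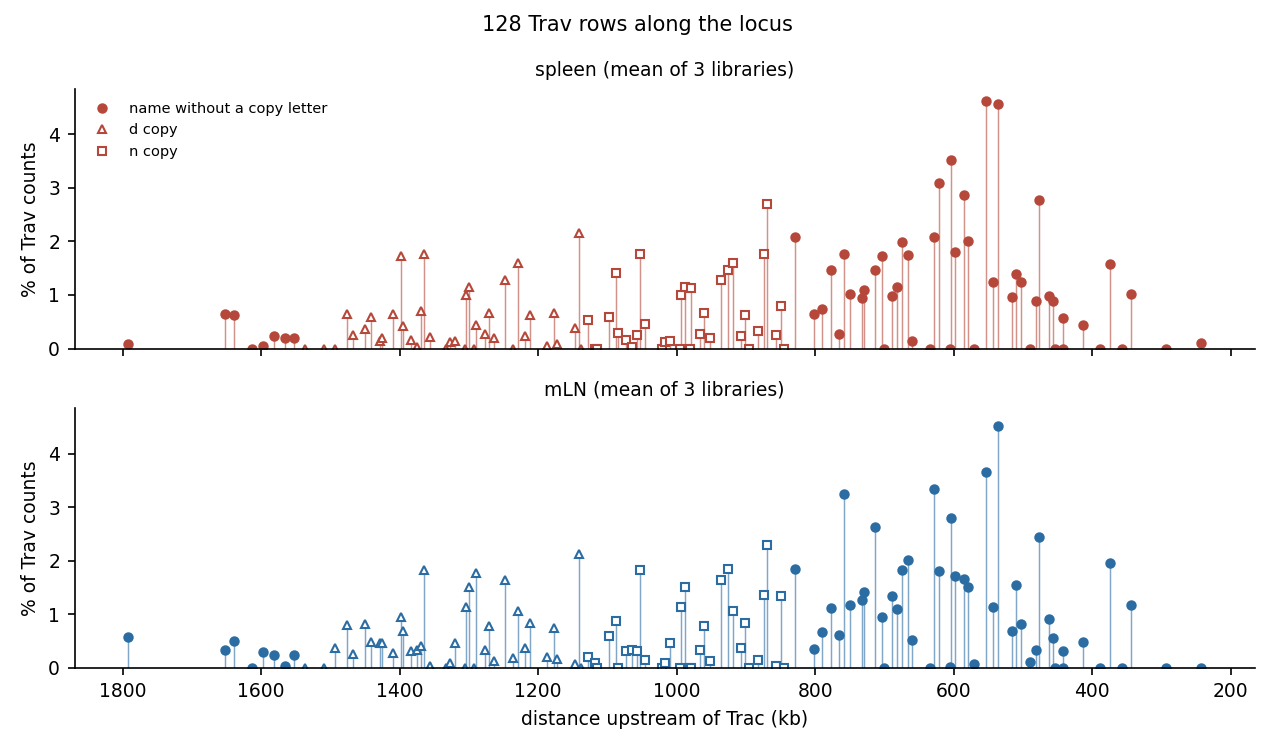
Mean share of Trav counts (y axis, %) of each of the 128 Trav rows against its distance upstream of Trac (x axis, kb, Trac to the right), in spleen (top) and mLN (bottom); symbols mark rows without a copy letter and d and n copies. In both tissues the highest shares lie between 500 and 1000 kb. Reads shared by copies are placed along the locus by RSEM's estimate only.

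Segments that are not expected to make a receptor chain stayed near 0. Pseudogenes, 20 of the Trav and 13 of the Trbv rows, held 0.706% of Trav and 0.427% of Trbv counts. Of them 15 and 10 were at 0 in every library, as were 5 Trav segments annotated as V genes and 0 such Trbv segments. Most of the rest of the untested rows held a few counts. The 80 untested Trav rows together held 19.8% of Trav counts, since many are copies, and the 16 untested Trbv rows held 1.07% of Trbv counts. Among these, Trbv23 had 8 counts in the spleen libraries and 19 in mLN, Trbv24, annotated as a pseudogene, had 6 and 19, Trbv30 had 10 and 15, and Trbv21 had 0 and 4. Of the untested Trav families, Trav2 had 14 and 17 counts, Trav17 had 10 and 24, and Trav23 had 2 and 0, while Trav18, Trav20 and Trav22 were at 0 throughout.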

How the data were processed

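Polyadenylated RNA of sorted CD45+ cells from spleen (3 libraries) and mLN (3 libraries) had been sequenced after library preparation with a directional kit, per the labels' protocols. The authors deposited 1 gene table per library. STAR, RSEM and mm10 are named in the submitters' processing notes, while versions, annotation and strand setting were not given in the sources used here. Per the file headers the deposited tables hold expected counts (estimates that divide shared reads among transcripts), transcript and effective lengths, TPM and FPKM; FPKM was not used. Of 55487 identifiers in each table, 55227 matched a GENCODE M21 symbol. Coordinates (1-based) and coding sequences are from M21 on GRCm38.

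Expected counts were rounded to whole numbers, filtered with filterByExpr by tissue (14427 genes left) and scaled with TMM factors. Tissues were compared with the robust quasi-likelihood F-test of edgeR 4.0.16 in R 4.3.3, with Benjamini-Hochberg adjustment over all genes tested, and called at an adjusted p under 0.05. For shares, the same whole-table fit took the sum over all Trav or all Trbv counts of a library as its size. Families were tested after summing their rows. Fold changes are mLN over spleen, and SE and 95% intervals come from the F statistic. Shares in the text are ratios of the deposited counts. Ratios of totals were compared by exact permutation tests over the 20 assignments of libraries, for which the smallest p is 0.1; 18 such values were computed and left unadjusted. Exact binomial intervals of low counts cover counting error only.

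On simulated data with known changes, made from these libraries' means over 14395 genes, the count test recovered 50 of 50 genes changed 2-fold. It recovered 42 of 50 changed 1.5-fold, and the Trbv share test recovered the same numbers. At 1.25-fold they recovered 31 and 25 of 50, and at 4-fold 47 each. False calls were 7 and 1. All genes had the same spread beyond counting, and no rise of the Trbv sum was built in. The power of the share test for V segments is therefore not shown. The changed genes were drawn from all levels, most of them above those of V segments.

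Single V segments named in the text are the 10 Trav rows highest in mean CPM, those called in share with separate groups, and the segments of innate-like T cells; tested Trbv segments and Trav families could all be named. Trav12d-3, Trav12n-3, Trav12-3, Trav11n, Trav6d-6 and Trav6-6, and the untested Trbv segments and Trav families given at the end, were named outside this rule, after their values were seen. The members, gene lists and naming rule were chosen with earlier results of these data known. The alternatives were DESeq2 1.42.0, other scalings, filters and denominators, a replicate block, leaving out each library, and summing copies. Promoter sequences were not analysed here.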

Additional observations from a re-analysis of the deposited data

How the results depend on the processing

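The calls of higher level in mLN kept their direction. Over 37 tested values of constant genes, Trbv segments and Trav families, 452 of 464 refits stayed on the same side of the threshold, 12 lost the call (Trbv15, Trbv26 and the Trav21 family) and 0 reversed. The count of Trav rows called lower was 1 without a filter on low counts (Trav12n-3). Share calls moved. With DESeq2 they were 0 in each direction for Trav and Trbv, as segments and as families. The 2 higher Trav shares became 4 with Trac as denominator, 4 without a filter and 1 with copies summed, and the 0 lower became 2 without a filter and 1 with copies summed. The 3 higher Trbv shares became 0 without a filter, as segments and as families. Leaving out 1 library at a time gave 2 to 5 higher Trav shares, 0 to 3 higher and 0 to 1 lower Trbv shares, 0 to 2 higher Trav family shares, and 0 to 3 higher and 0 to 1 lower Trbv family shares.

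Same-numbered libraries of the tissues did not deviate together (correlations -0.01 to 0.02 over genes), and only the pair numbered 1 correlated best with each other. With the replicate block 31 Trav and 19 Trbv rows were called higher, and 2 Trav and 2 Trbv shares. Trbv20 lost its share call (edgeR adjusted p = 0.0557). Without the block, 21.8% of all genes were called higher in level. In share of Trav and of Trbv, 0.451% and 0.88% were. Replicates differed by more than counting noise in every pair of a tissue (their squared differences had medians 2.51 to 2.96 times what counting alone gives). Depth limits single Trav rows: the median SE of a share change was 0.52 for Trav and 0.26 for Trbv rows on the log2 scale, so changes well under 2-fold in a Trav row were not detectable at this depth.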

Other observations

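Within a tissue, Trbv shares varied between libraries more than counting alone gives: the squared deviations per degree of freedom were 2.40 times the counting value over the spleen libraries and 3.07 times over the mLN libraries. For Trav families the values were 2.06 and 3.98. Between the tissues, with the libraries of each pooled, they were 4.41 for Trbv segments and 3.04 for Trav families. Whether these differ from the values within a tissue was not tested. Trbv counts per 100 Trav counts were 118, 138 and 136 in spleen and 106, 119 and 118 in mLN, and overlapped. Among delta variable rows, Trdv1 had 1 count in the spleen libraries and 13 in the mLN libraries (CPM ratio 14.6, 95% exact interval 2.19 to 619, counting error only), Trdv2-2 had 20 and 11, Trdv4 had 15 and 10, and Trdv5 had 14 and 17.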
